A study of Mus musculus with 4 samples.

Results

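Tumour necrosis factor (TNF) ligands and their receptors were followed in mouse breast cancer cells that carry or lack Pak1, a p21-activated kinase. The group was set by name, as every non-control probe whose gene name on the array was Tnf, Tnfsf10, Tnfsf11, Fas, Tnfrsf10b, Tnfrsf1a, Tnfrsf1b, Tnfrsf12a, Tnfrsf11b or Cd40. These 10 genes, 3 ligands and 7 receptors, were covered by 11 of the 39429 probes on the array. The brightest probe stood for a gene, which mattered for Tnfrsf1a alone, since it had 2 probes.

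Ligands of the TNF superfamily are mostly membrane proteins that act as trimers, on the cell that carries them or its neighbours or, once released, at a distance. Death receptors such as Fas, Tnfrsf10b and Tnfrsf1a carry a death domain inside the cell that recruits Fadd or Tradd, and through them caspase-8, which can start apoptosis. Receptors without this domain bind Traf adaptors and switch on NF-κB, and Tnfrsf1a can do so too. In mammary tissue the ligand Tnfsf11 (RANKL) and its decoy receptor Tnfrsf11b (osteoprotegerin) are known for their part in the growth of the gland.

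The cells were derived from mammary tumours of MMTV-Neu mice, whose Neu (Her2) oncogene is under the promoter of the mouse mammary tumour virus. The 4 samples formed 2 groups, Pak1-/- (n = 2) and Pak1+/+ (n = 2), and per the series design the samples of a group came from different tumours, so p-values cover only the spread between these few cultures. All 4 had been kept without serum for 3 h and then given EGF for 15 min, and their RNA was measured with one dye (Cy3) on 60-base probes. Cells without stimulation were not analysed here. The 4 arrays lay on 1 slide, the Pak1-/- arrays beside each other in its first positions, so that array position and genotype cannot be told apart.

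The median spot intensity was 322 to 331 over a local background of 39.0 to 42.0, and 62.2% to 70.4% of probes were well above background on an array. The single Pak1 probe did not tell the groups apart by a loss of signal. It read 12.21 and 12.25 on the normalized log2 scale in the Pak1-/- arrays and 12.04 in both Pak1+/+ arrays, a difference of 0.19 with a limma adjusted p of 0.070 (0.27 with an adjusted p of 0.027 under cyclic loess). Whether the probe lies in the deleted part of the gene is not given in the sources used here, so that it may not check the labels. Every direction below is therefore that of the labels. In bulk RNA, a change in the number of cells of a type and a change in the RNA per cell cannot be told apart. The epithelial markers Epcam, Krt8 and Krt18 were well above background on all 4 arrays, as were 8 of 12 leukocyte markers and 3 of 8 fibroblast markers. The leukocyte markers Cd3g and Lyz2 and the fibroblast markers Col3a1, Pdgfrb, Dcn and Lum were not so on any.

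Most of the 10 TNF ligands and receptors named above were higher in the Pak1-/- cells. These genes had been chosen with earlier results of these data known. Of the 10 genes, 9 were well above background on at least 2 arrays and could be tested. In limma 7 of these were higher (Tnf, Tnfsf10, Fas, Tnfrsf10b, Tnfrsf1a, Tnfrsf1b and Tnfrsf11b), 1 was lower (Cd40) and 1 (Tnfrsf12a) did not pass an adjusted p of 0.05. Across all 22014 genes tested, 51.0% passed that threshold, 22.8% higher and 28.2% lower, so that a call in either direction was common on these arrays. Differences of at least 2-fold were rarer, at 6.99% of all genes higher and 5.61% lower, and 4 of the 9 genes were among the higher ones (Tnf, Tnfsf10, Fas and Tnfrsf11b) while none was among the lower ones. In normalized values the groups did not overlap for any of the 9 genes, against 77.6% of all genes with 4 values. The median log2 difference, Pak1-/- minus Pak1+/+, was 0.93 over the 9 genes and -0.055 over all genes, whose middle range between quartiles ran from -0.36 to 0.27.

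**Figure D1:**
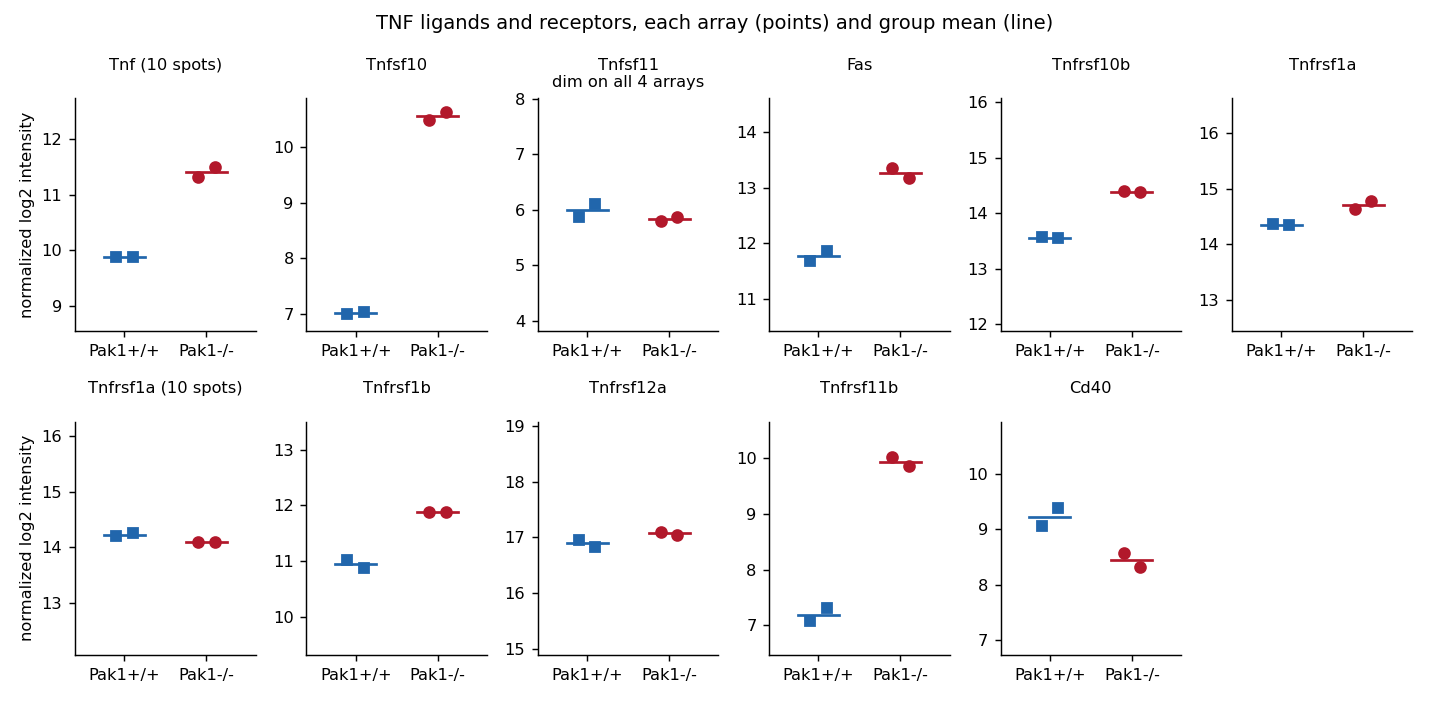
Normalized log2 intensity (vertical axis, its own range for each probe) of the 11 probes of TNF ligands and receptors on each array, with Pak1+/+ on the left and Pak1-/- on the right of each panel; points are arrays and lines are group means. The 2 arrays of a group lie close together, Tnfsf10 and Tnfrsf11b show the widest gap between groups, Cd40 and, by a small margin, the second Tnfrsf1a probe (10 spots) have the Pak1-/- arrays below, and Tnfsf11 is not well above background anywhere.

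The DNA before the start sites is shown for 3 of the higher genes: Tnfsf10 and Fas, a ligand and a death receptor past 2-fold, and Tnfrsf1b, the gene with matches to more than one of the motifs searched. RefSeq windows of 300 bases (250 before and 50 after a start site, GRCm38.p6) were available for 7 of the 10 genes and not for Tnfrsf10b, Tnfrsf11b and Cd40. The runs below are the bases before the start, 5′ to 3′ on the gene's strand, at chr3:27316827-27317076 (plus strand) for Tnfsf10, chr19:34290409-34290646 (plus strand, ending before the first annotated base of the gene) for Fas and chr4:145246871-145247120 (minus strand) for Tnfrsf1b. Capitals mark matches to the letters GAAANNGAAA, a form of the interferon-stimulated response element, or TTCNNNGAA, a form of the gamma-activated site bound by STAT factors.
Tnfsf10: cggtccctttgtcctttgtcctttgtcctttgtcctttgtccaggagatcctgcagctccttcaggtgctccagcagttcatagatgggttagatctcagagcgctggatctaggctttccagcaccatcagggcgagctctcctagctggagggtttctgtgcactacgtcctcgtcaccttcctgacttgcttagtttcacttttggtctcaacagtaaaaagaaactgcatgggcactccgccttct
Fas: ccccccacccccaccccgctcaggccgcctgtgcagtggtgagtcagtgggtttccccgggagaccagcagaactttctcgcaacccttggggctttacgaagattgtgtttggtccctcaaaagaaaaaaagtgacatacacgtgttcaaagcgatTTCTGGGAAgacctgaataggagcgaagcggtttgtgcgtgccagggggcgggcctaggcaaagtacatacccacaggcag
Tnfrsf1b: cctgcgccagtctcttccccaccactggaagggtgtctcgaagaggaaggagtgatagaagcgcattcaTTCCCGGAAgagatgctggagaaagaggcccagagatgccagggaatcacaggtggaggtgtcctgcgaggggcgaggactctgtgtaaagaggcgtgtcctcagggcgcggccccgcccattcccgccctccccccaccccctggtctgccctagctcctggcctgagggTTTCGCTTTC

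Both strands of the 7 windows were searched, and a match describes letters only. The letters TTCNNNGAA, which read the same on both strands, stood in 3 of the 7 windows: TTCTGGGAA at position -93 from the start site of Fas, TTCCCGGAA at -181 of Tnfrsf1b and TTCCGTGAA at -244 of Tnfrsf1a. They stood in 8.30% of all 32851 windows. The letters GAAANNGAAA stood in 1 of the 7, on the other strand of Tnfrsf1b (printed as TTTCGCTTTC, at -10), and in 3.44% of all windows. The letters GGGNNNTTCC, a form of the κB site of NF-κB, stood in none of the 7 and in 5.56% of all windows. The matches did not overlap. The Tnfsf10 window held none of the motifs, which says only that these letters are not in these bases.

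Tnfsf10, which encodes the death ligand TRAIL, had the largest difference of the group. Its probe (mm9 chromosome 3, 27238508 to 27238567) read 10.48 and 10.63 on the normalized log2 scale in the Pak1-/- arrays and 7.00 and 7.04 in the Pak1+/+ arrays. Both Pak1-/- arrays were far above both Pak1+/+ arrays. The difference was 3.54 log2 (95% interval 3.32 to 3.75), or 11.6-fold, with a limma adjusted p of 7.1e-05. In the Pak1+/+ cells the spot was near the lower limit of the array: its intensity was 112 and 115, and it was well above background in replicate 1 only. The size of the change at that low level moved with the background step, to 4.19 log2 with no offset and to 4.89 with the scanner's own subtraction.

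Tnf, the founding cytokine of the family, was also higher in the Pak1-/- cells. The array carried its probe (chromosome 17, 35336795 to 35336854) in 10 spots, of which 1 was left out as an outlier in replicate 2 of each group. The mean of the spots used was 11.31 and 11.50 in the Pak1-/- arrays and 9.88 in both Pak1+/+ arrays. The difference was 1.53 (interval 1.29 to 1.76), or 2.88-fold (limma adjusted p = 0.00050). Repeated spots gave a direct view of the error within an array. The spots used had an SD of 0.079 to 0.14 log2 on each array, and the lowest of them in the Pak1-/- arrays (11.01) was above the highest in the Pak1+/+ arrays (9.99).

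**Figure D2:**
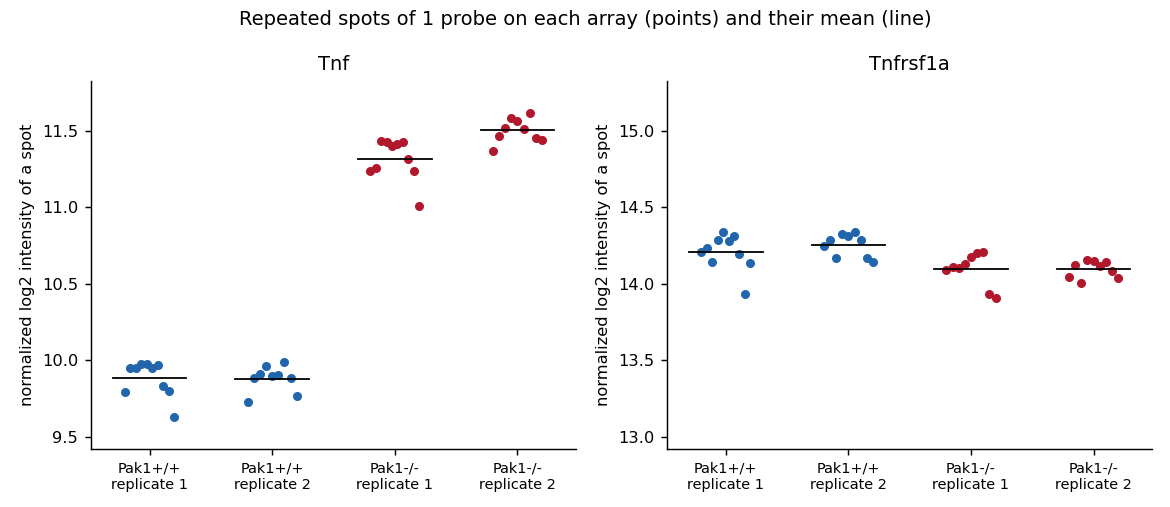
Normalized log2 intensity (vertical axis) of single spots of the Tnf probe and of the second Tnfrsf1a probe on each of the 4 arrays (horizontal axis); points are spots and lines are their mean. Spots flagged as outliers are left out. All Tnf spots shown for the Pak1-/- arrays, from 11.01 up, lie above all those shown for the Pak1+/+ arrays, up to 9.99, while the Tnfrsf1a spots of the groups overlap.

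Tnfsf11, the ligand known as RANKL, was not measured above background. Its probe (chromosome 14, 78677444 to 78677503) had intensities of 42.4 and 43.1 in the Pak1-/- arrays and 41.5 and 46.8 in the Pak1+/+ arrays, close to the local background of 31.0 to 41.0 around the spots. It was not well above background (dim) on any of the 4 arrays, so no difference between the groups could be tested. Its level at this sensitivity has only an upper bound.

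The death receptors Fas and Tnfrsf10b were higher in the Pak1-/- cells, and Tnfrsf1a was so by its brightest probe only. Fas, the receptor of Fas ligand (chromosome 19, 34402164 to 34402223), read 13.36 and 13.18 in the Pak1-/- arrays and 11.68 and 11.87 in the Pak1+/+ arrays. The groups were well separated, with a difference of 1.49 (interval 1.21 to 1.78), or 2.82-fold (limma adjusted p = 0.00082). Tnfrsf10b, the mouse death receptor for TRAIL (chromosome 14, 70184141 to 70184200), read 14.41 and 14.38 against 13.57 and 13.55. The arrays of a group almost coincided, and the difference was 0.83 (interval 0.65 to 1.01), or 1.78-fold (limma adjusted p = 0.0011). The spot intensity of Tnfrsf10b was 20129 and 21961 in the Pak1-/- arrays and 12610 and 11808 in the Pak1+/+ arrays, so that this order was already present before normalization.

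Tnfrsf1a, the main TNF receptor of most cells, gave a less certain result because its 2 probes disagreed. The brightest probe (chromosome 6, 125311922 to 125311981, 1 spot) read 14.64 and 14.79 in the Pak1-/- arrays and 14.37 and 14.34 in the Pak1+/+ arrays. This was a difference of 0.36 (interval 0.14 to 0.58) with a limma adjusted p of 0.021. The other probe starts 454 bases further on (125312376 to 125312435) and was measured in 10 spots, less 1 outlier spot on each array except Pak1+/+ replicate 1. It read 14.10 and 14.09 against 14.21 and 14.25, with the Pak1-/- arrays slightly lower. Its difference of -0.13 (interval -0.31 to 0.045) was not past the threshold (limma adjusted p = 0.16). The gap between the probes was 0.54 and 0.69 log2 in the Pak1-/- arrays and 0.16 and 0.088 in the Pak1+/+ arrays. With the mean of both probes the gene's difference was 0.11 and its limma adjusted p 0.24, within a range of 0.0079 to 0.24 across the 14 alternatives. The call was lost in 6 of them, among them leaving out Pak1-/- replicate 2 (0.29, adjusted p = 0.060), Pak1+/+ replicate 1 (0.37, adjusted p = 0.078) or Pak1+/+ replicate 2 (0.35, adjusted p = 0.094).

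Among the remaining receptors, Tnfrsf11b had the largest difference. It encodes osteoprotegerin, a soluble decoy that binds RANKL and TRAIL, and its probe (chromosome 15, 54082760 to 54082819) read 10.03 and 9.86 in the Pak1-/- arrays and 7.07 and 7.30 in the Pak1+/+ arrays. Both Pak1-/- arrays were above both others by 2.76 log2 (interval 2.45 to 3.06), or 6.75-fold (limma adjusted p = 0.00021). The spot intensity was 1021 and 942 against 118 and 143, and all 4 spots were well above background. As for Tnfsf10, the background step set the size of the difference from so dim a level, up to 3.70 log2 with the scanner's own subtraction. The ligand TRAIL and its decoy were thus both higher in the same cultures, while the decoy's other ligand, RANKL, was near background.

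Tnfrsf1b, the second TNF receptor, which signals through Traf2 without a death domain (chromosome 4, 144802359 to 144802418), read 11.88 in both Pak1-/- arrays and 11.01 and 10.87 in the Pak1+/+ arrays. The difference was 0.93 (interval 0.72 to 1.15), or 1.91-fold (limma adjusted p = 0.0013). Tnfrsf12a, or Fn14, the receptor of the ligand TWEAK (chromosome 17, 23812746 to 23812805), read 17.10 and 17.05 in the Pak1-/- arrays and 16.96 and 16.83 in the Pak1+/+ arrays. Its spot intensity overlapped before normalization, at 119101 and 133909 in the Pak1-/- arrays and 141197 and 124511 in the Pak1+/+ arrays. The normalized values of the groups did not overlap, but the difference of 0.18 (interval -0.031 to 0.39) was not past the threshold (limma adjusted p = 0.13). Its sign depended on the scaling: with each array scaled to its 75th percentile it was -0.11 from the processed signal and -0.071 after normexp, and neither passed. A model with an intensity trend brought it past the threshold (adjusted p = 0.047).

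Cd40, a costimulatory receptor best known from B cells and other antigen-presenting cells, went the other way. Its probe (chromosome 2, 164897085 to 164897144) read 8.57 and 8.33 in the Pak1-/- arrays and 9.05 and 9.39 in the Pak1+/+ arrays. The difference was -0.77 (interval -1.17 to -0.37) with a limma adjusted p of 0.013. Replicates of Cd40 were further apart than those of any other tested gene of the group, by up to 0.33 log2. The call ended without Pak1-/- replicate 2 (-0.65, adjusted p = 0.068).

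**Figure D3:**
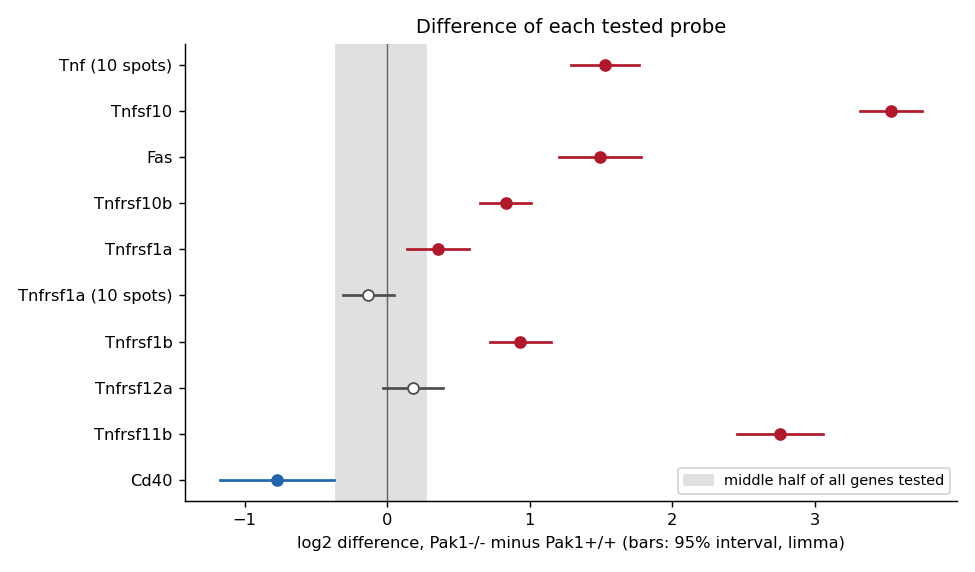
Log2 difference (horizontal axis, Pak1-/- minus Pak1+/+) of each tested probe of the TNF ligands and receptors, with the 95% interval from limma as bars and the range between quartiles of all genes tested as a grey band from -0.36 to 0.27. Tnfsf10 at 3.54 and Tnfrsf11b at 2.76 lie farthest to the right, Cd40 at -0.77 to the left, and the intervals of Tnfrsf12a and of the second Tnfrsf1a probe include 0.

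**Figure D4:**
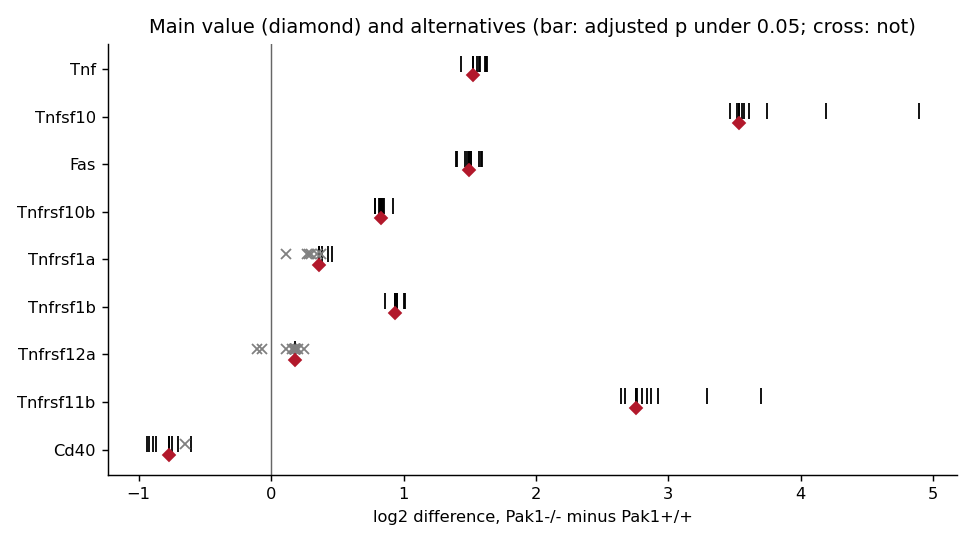
Log2 difference (horizontal axis) of each tested gene under the main processing (diamond) and under each alternative (bars where the adjusted p was under 0.05 and crosses where it was not). Tnf, Tnfsf10, Fas, Tnfrsf10b, Tnfrsf1b and Tnfrsf11b were past the threshold under every alternative that could be computed, and Tnfrsf12a is the one gene with values on both sides of 0.

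The rest of the superfamily was mixed. Of 15 other ligands 14 had a probe and 6 could be tested. In limma 2 were higher and 2 lower (against 22.8% and 28.2% of all genes), with a median log2 difference of 0.11. Ltb (lymphotoxin beta), at 9.83 and 9.88 against 8.97 and 8.94, was higher by 0.90 (adjusted p = 0.00096) and Tnfsf15 (TL1A) by 0.29 (adjusted p = 0.033), a call lost in 8 of 14 alternatives, among them leaving out Pak1-/- replicate 1 or either Pak1+/+ replicate. Tnfsf9, the ligand of the costimulatory receptor 4-1BB, read 7.02 and 6.95 against 9.28 and 9.42 and was lower by -2.36 (adjusted p = 0.00015), and Lta (lymphotoxin alpha) was lower by -0.82 (adjusted p = 0.0020). Partners of the receptors above were looked at whatever their value. Fas ligand (Fasl) and the Cd40 ligand (Cd40lg) were dim on all 4 arrays. Tnfsf12, which encodes TWEAK, had a difference of 0.18 (interval -0.16 to 0.51) in its brightest probe, which did not pass (adjusted p = 0.30), and of 0.77 in its other probe, which did (adjusted p = 0.0037). Over the alternatives the difference of the gene ranged from 0.013 to 0.47, and its call was not the same in all of them.

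Of 21 other receptors 16 could be tested. In limma 2 were higher and 5 lower (against 22.8% and 28.2% of all genes), with a median of -0.035. The share called was 43.8%, against 51.0% of all genes. The higher receptors were Tnfrsf25 (DR3, the receptor of TL1A) at 9.54 and 9.19 against 7.92 and 7.84, a difference of 1.49 (adjusted p = 0.0015), and Tnfrsf21 (DR6) with a difference of 0.51 (adjusted p = 0.0068). Tnfrsf23 and Tnfrsf22, mouse decoy receptors for TRAIL, had the largest decreases. Tnfrsf23 read 12.40 and 12.84 in the Pak1-/- arrays and 14.21 and 14.13 in the Pak1+/+ arrays, a difference of -1.54 (adjusted p = 0.0021), and its other probe gave -0.92 (adjusted p = 0.0017). Tnfrsf22 read 9.16 and 9.58 against 10.49 and 10.41, a difference of -1.09 (adjusted p = 0.0052), with -0.28 in its other probe (adjusted p = 0.042). Genes of such a close family can share probe signal, and this was not tested.

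Tnfrsf19 (-0.64, adjusted p = 0.031), Tnfrsf9, the receptor 4-1BB (-0.44, adjusted p = 0.019), and Relt (-0.44, adjusted p = 0.0070) were lower as well, Relt being named because it completes the count. A second Tnfrsf19 probe, at -0.087, did not pass (adjusted p = 0.48). A second Tnfrsf9 probe was higher by 1.14 (adjusted p = 0.00051), so that the direction of Tnfrsf9 is unsettled. The Tnfrsf19 call was lost without Pak1-/- replicate 1 or either Pak1+/+ replicate, and the Tnfrsf9 call without either Pak1+/+ replicate. Tnfrsf11a (RANK), the receptor of RANKL, had a difference of 0.24 (interval -0.038 to 0.52) that did not pass (adjusted p = 0.12). Over the alternatives it ranged from 0.12 to 0.37, and its call was not the same in all of them. The count of lower receptors was 3 without Pak1+/+ replicate 2.

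Inside the cell, adaptors and effectors of death signalling also went both ways. Of 19 genes 18 were tested. In limma 8 were higher and 3 lower (against 22.8% and 28.2% of all genes), and the median log2 difference was 0.16. The largest increases were those of Traf5 (1.16, adjusted p = 0.0039), an adaptor, Daxx (1.07, adjusted p = 0.00079), a Fas-binding protein, Birc3 (1.01, adjusted p = 0.0013), which encodes the inhibitor of apoptosis cIAP2, and Traf2 (0.94, adjusted p = 0.00092), the adaptor that binds Tnfrsf1b. Bid, which links death receptors to mitochondria, read 14.47 and 14.39 in the Pak1-/- arrays and 14.89 and 14.96 in the Pak1+/+ arrays and was lower by -0.50 (adjusted p = 0.0059). Diablo, released from mitochondria to block inhibitors of apoptosis, was lower by -0.34 (adjusted p = 0.024), and the remaining one was Fadd. The count of lower genes was 1 without Pak1-/- replicate 1, and also 1 without either Pak1+/+ replicate, the calls of Diablo and Fadd being those lost.

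The transcripts of proteins that bind the receptors or act next to them did not share a direction. Tradd, the first adaptor of Tnfrsf1a, read 13.62 and 13.69 against 13.07 and 13.10 and was higher by 0.57 (limma adjusted p = 0.0033). Fadd, the adaptor of Fas and Tnfrsf10b, read 11.06 and 11.23 against 11.49 and 11.45 and was lower by -0.33 (adjusted p = 0.033), a call lost in 6 of 14 alternatives, among them leaving out Pak1-/- replicate 1 or either Pak1+/+ replicate. Ripk1, Casp8 and Cflar did not pass the threshold. Ripk1, the kinase recruited by Tnfrsf1a, had a difference of -0.18 (interval -0.41 to 0.046, adjusted p = 0.14). Casp8, the initiator caspase, had one of -0.063 (interval -0.25 to 0.13, adjusted p = 0.50), with the sign turned under cyclic loess. Cflar, its inhibitor cFLIP, was at 0.0013 in the brightest probe (interval -0.20 to 0.20, adjusted p = 0.99) and at -0.30 in another of its 3 probes (adjusted p = 0.022). Ripk3, the kinase of necroptosis, was dim on all 4.

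Genes that TNF is known to induce were also examined. Of 16 targets 15 were tested, 9 were higher and 2 lower in limma (against 22.8% and 28.2% of all genes), and the median was 0.55. Icam1 was kept by the filter through the Pak1-/- arrays alone, and without it, a count added after the data were seen, 8 of 14 were higher and 2 lower. The count of higher targets was 6 to 9 over the alternatives. The chemokine Cxcl10 read 11.72 and 12.18 in the Pak1-/- arrays and 7.23 in both Pak1+/+ arrays, a difference of 4.72 (adjusted p = 0.00015), and the chemokine Ccl5 read 14.26 and 14.36 against 9.73 and 9.84, a difference of 4.52 (adjusted p = 4.5e-05). Cxcl10 was well above background on only 1 of the Pak1+/+ arrays. Tnfaip2 was higher by 2.37 (adjusted p = 0.00010). Icam1, an adhesion molecule, was not well above background in the Pak1+/+ arrays and was at least 1.85-fold higher in the Pak1-/- arrays (means of 7.76 and 6.15), a difference that its selection through the brighter group favours. The decreases were those of the chemokine Ccl2, at 7.72 and 7.46 against 10.34 and 10.41 (-2.79, adjusted p = 0.00019), and of the growth factor Csf2 (-0.97, adjusted p = 0.0058).

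**Figure D5:**
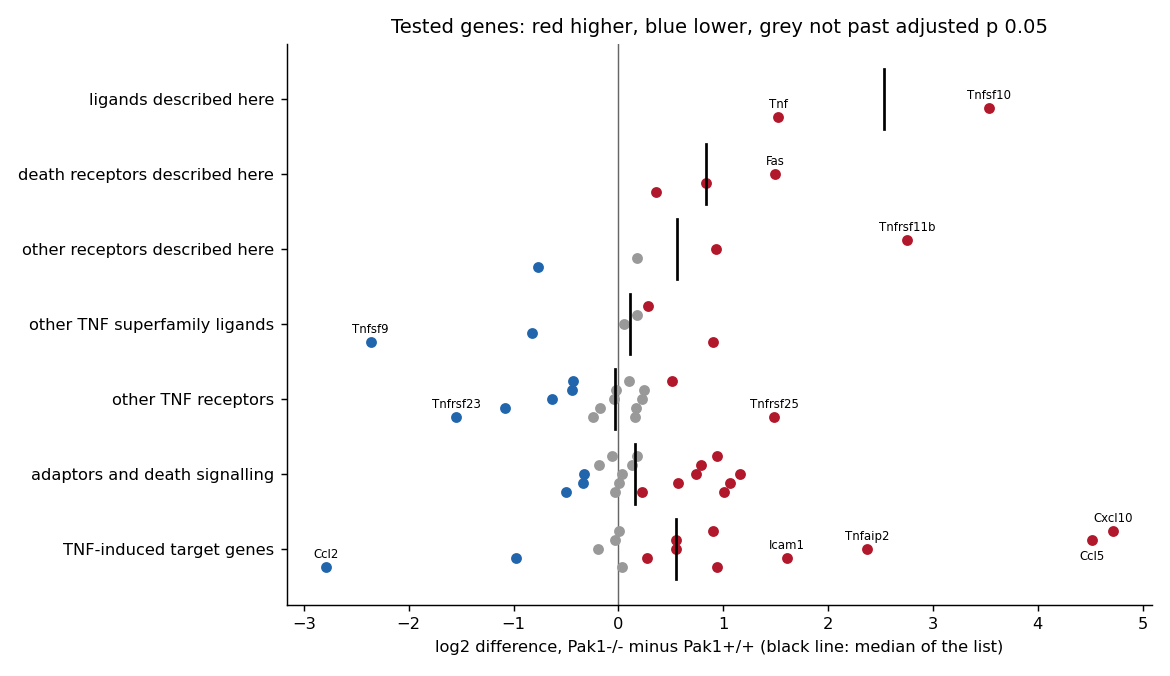
Log2 difference (horizontal axis, Pak1-/- minus Pak1+/+) of every tested gene among the TNF ligands, death receptors and other receptors described above, the other ligands and receptors of the superfamily, the adaptors and the TNF targets; points are genes by their brightest probe (Icam1 at its fitted value), red where higher, blue where lower and grey where the limma adjusted p was not under 0.05, and black lines are list medians. The other ligands, other receptors and adaptors spread on both sides of 0 with medians of 0.11, -0.035 and 0.16, and the TNF targets reach from Ccl2 at -2.79 to Cxcl10 at 4.72.

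Other gene groups moved between the same samples. Many of the genes above, among them Tnfsf10, Fas, Cxcl10 and Ccl5, are also known to respond to interferon. Of the 10 interferon response genes examined the 8 that were well above background on all 4 arrays were higher, against 22.8% of all genes. The other two, Mx1 and Rsad2, were dim on both Pak1+/+ arrays and kept through the Pak1-/- arrays alone. The median log2 difference of the 10 was 6.32 (6.30 with Mx1 and Rsad2 at their bounds), with a summed linear intensity of 491000 to 529000 in the Pak1-/- arrays against 13800 to 16900 in the Pak1+/+ arrays. Basal epithelial markers were higher for 6 of 7 tested and lower for none, against 22.8% and 28.2% of all genes. Their median was 1.69, with sums of 91200 to 101000 against 19400 to 19900. Myh11 was dim on all 4 arrays. The part of either group in the differences of the TNF genes was not tested.

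Leukocytes are a rich source of Tnf and Cd40 in tissue. Of 12 leukocyte markers 8 were tested, none was higher and 3 were lower in the Pak1-/- arrays (Cd14 -1.70, Adgre1 -1.05 and Ptprc -0.45). For this and the marker counts below, the shares over all genes were 22.8% higher and 28.2% lower. The leukocyte markers had sums of 109000 to 124000 against 203000 to 219000. The sum rested on the brightest markers, as sums chosen after the data were seen show. Without Cd14, which epithelial cells also make, the other 11 markers added up to 54700 to 77700 against 46500 to 51100, and without Cd14 and Itgam, whose difference did not pass, the other 10 added up to 8180 to 8780 against 8070 to 8860. The other 5 tested did not pass, with differences that lay on both sides of 0. The part of leukocyte transcripts in the differences of Tnf and Cd40 was not tested. Of the 8 fibroblast markers 3 were tested and 1 was higher (Col1a1, 1.12), with sums of 1370 to 1560 against 1210 to 1250. Of the 6 endothelial markers 4 were tested and none passed by its brightest probe, though a second Kdr probe was higher by 1.37 (limma adjusted p = 0.00046), with sums of 10100 to 10500 against 9210 to 11000. All 8 epithelial markers were tested, 3 were higher and 2 lower, with sums of 1030000 to 1040000 against 919000 to 926000.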

How the data were processed

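RNA of 4 cultures was labelled with Cy3 and hybridised to Agilent mouse arrays. The authors deposited scanner files with linear spot intensities and local background intensities, together with quality flags, made with Feature Extraction (9.5.3.1 per the file headers and 9.5 per the submitters' processing notes). They also deposited a table of log2 values, described in their methods as normexp corrected and quantile normalized in limma, with values in 24008 of 39485 rows. Here the 43020 non-control spots were corrected with normexp (offset 50), quantile normalized as log2 values with limma 3.58.1 in R 4.3.3. Spots flagged as outliers were left out and the spots of a probe were averaged. Kept were the probes that 2 or more of the 4 arrays showed well above background (27229, or 69.1%). Groups were compared with lmFit and eBayes (two-sided, genotype as the only term), with Benjamini-Hochberg adjustment over all of these probes and 0.05 as the threshold. The methods state neither offset nor filter. The script was checked on simulated data. An offset understates changes of dim probes. Where a probe was dim on both arrays of a group, the fold is a lower bound: the brighter group's mean against, on each array of the dimmer group, either its own value or, if greater, that array's lowest signal counted as well above background.

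Probes were named through RefSeq accessions (GRCm38.p6), of which 26055 of 32334 matched, and all 11 probes of the group matched their gene. Coordinates of probes are on mm9, as in the files. No annotation of that build was used, so exons and UTRs are not given. Promoter windows came from RefSeq. Named genes were the 10 members, up to 4 higher and 4 lower genes of each TNF-related list by size of the difference, direct partners of the members, and Pak1. The members and lists were chosen with earlier results of these data known, and lists are described by counts and medians, without a test. Some genes of the death signalling list are not reported here and stand in none of its counts. Alternatives were no offset, the processed signal and normexp scaled to the 75th percentile, cyclic loess, the deposited log2 values, other filters, an intensity trend, the replicate block, leaving out each array, and the mean over a gene's probes. Replicates were compared first: the median absolute difference between the arrays of a group was 0.11 log2 for Pak1-/- and 0.083 for Pak1+/+. An exact permutation test of 2 against 2 cannot give a p below 0.333 and was not used. The number of arrays limits the precision.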

Additional observations from a re-analysis of the deposited data

How the results depend on the processing

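Over 14 alternatives the differences of Tnf, Tnfsf10, Fas, Tnfrsf10b, Tnfrsf1b and Tnfrsf11b kept their direction and their limma call wherever they could be computed (Tnfsf10 has no value where all 4 arrays must be well above background). The call of Tnfrsf1a was lost at 0.27 with the processed signal, at 0.30 with normexp scaled to the 75th percentile and at 0.11 with the mean of both probes, and its value was 0.29 to 0.43 with 1 array left out. Tnfrsf12a turned to -0.11 with the processed signal and to -0.071 with normexp scaled to the 75th percentile, and passed at 0.18 with an intensity trend. Cd40 was at -0.94 to -0.60 with 1 array left out and did not pass without Pak1-/- replicate 2. The count of higher genes was 7, or 4 with at least 2-fold and 6 to 7 with 1 array left out. The count of lower genes was 1, or 0 at an adjusted p of 0.01, 0 with at least 2-fold and 0 to 1 with 1 array left out (Cd40 at an adjusted p of 0.013 being the gene concerned).

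Of the other ligands, the count of higher genes was 1 with the processed signal, with normexp scaled to the 75th percentile, without a filter, with an intensity trend and with the replicate block, and 1 to 2 with 1 array left out, and the count of lower genes was 4 without a filter. Of the other receptors 3 to 6 were lower with 1 array left out. Of the adaptors 1 to 3 were lower with 1 array left out. Tnfrsf9 turned to 0.35 with the mean of its probes, Casp8 to 0.045 under cyclic loess, and Cflar to -0.12 with the mean of its probes, and lay between -0.047 and 0.049 with 1 array left out. The cause of these changes was not tested.

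No pairing by the numbers of the labels was seen: the deviations of same-numbered samples had r = -0.028 across 27229 probes, which are not independent. With 2 arrays a group, this cannot show that the samples are unpaired. With the replicate block, 7 genes of the group were higher and 1 lower, as without it. Probes past the threshold numbered 14132, and 10307 to 14578 over the alternatives. Precision is limited by 2 arrays a group, and signal over background limits Tnfsf11, Fasl, Cd40lg, and the size of differences from a dim level, such as those of Tnfsf10, Tnfrsf11b, Tnfsf9 (-3.50 with the processed signal), Lta (-1.31), Ccl2 (-3.41) and Cxcl10 (5.79).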
